A study of Homo sapiens with 9 samples.

Results

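The 79 genes described here lie side by side on the long arm of human chromosome 2, in bands usually called 2q32 to 2q33. They were chosen by position: a gene is a member where its array row carries the chromosome 2 prefix and a gene symbol, and where its start in the RefSeq table of assembly GRCh38.p14 lies from 182.7 to 203 Mb. The window runs from DNAJC10 to CARF. Of the 83 named rows in it, 4 (CASP8, CASP10, CFLAR and ITGAV) were left out by the rule, and each remaining symbol had 1 row. The whole table has 20893 tested rows, of which 17705 have a symbol. The window was drawn with earlier results of these arrays known, from the differences between the clones and the control and between control array 1 and the other control arrays. Those differences are therefore given as a description: calls of the fit over all rows are counted beside the share of all rows, and they are no test of the window.

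The arrays hold RNA of L-1236, a human line grown from Hodgkin lymphoma. In this tumour of B cell origin the malignant Hodgkin and Reed-Sternberg cells have lost most of the B cell programme. There were 3 groups of 3 arrays. The control cells (lentiCRIPSPR_v2, labelled as of wild type phenotype) received the Cas9 vector with no guide named. Clone g2_1 (lentiCRIPSPR_v2-LTA_g2) has a guide to the second LTA exon. Clone g3_4 (lentiCRIPSPR_v2-LTA_g3) has one to the fourth exon. The product of LTA is lymphotoxin alpha, a cytokine related to TNF. Each knockout group is thus 1 single-cell clone; whether the control cells are clonal is not given in the sources used here. Clones were maintained in conditioned medium of L-1236, and all cells spent the last 72 h in normal medium. No label ties the 3 arrays of a group to 3 cultures, so p-values measure only the spread between these arrays, which may be technical. RNA integrity was scored 10 on the arrays numbered 1 of all 3 groups and 9.5 to 9.6 on the other arrays.

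A chromosome window is not a pathway. Its genes are grouped by place alone, and their products act in unrelated processes. Genes that lie side by side share the copy number of their chromosome segment and may share chromatin domains, and neighbours that are read in opposite directions from 1 intergenic stretch can share promoter sequence. The files hold no measurement of DNA copy number or chromatin.

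All values are log2 signals after RMA, which makes the distribution of the arrays alike, and they come without detection calls. Array medians over the tested rows were 6.27 to 6.29 in control cells and 6.15 to 6.19 in the clones, and centring the arrays on them adds 0.11 to the median of all differences from control, so that values just under 0 turn positive. LTA itself was at 11.58, 11.07 and 11.08 in control cells, at 7.97, 7.53 and 7.11 in g2_1 and at 6.94, 7.25 and 6.61 in g3_4. All 7 Hodgkin markers lay above the first quartile of all values (4.64), with mean levels of 11.95 (IRF4), 11.6 (TNFRSF8), 10.72 (FSCN1), 10.18 (CD70), 9.09 (TRAF1), 6.14 (CCL17) and 5.53 (CCL22). TNFRSF8 was called higher and CCL22 lower in both clones, by 0.745 and -1.18 with the clones averaged, and the summed level was 64.9 to 66.4 in control cells, 66.0 to 66.9 in g2_1 and 62.6 to 64.1 in g3_4. CD70 was 1.41 above control in g2_1 and at -0.94 in g3_4, a difference called between the clones (adjusted p = 0.011 in limma). Of 6 T cell markers, CD4 and CD2 were called higher in both clones, and CD3D, CD3G and CD8A lay under the first quartile. The summed log2 level of that list was 33.0 to 35.1 on control arrays and 36.4 to 37.1 on clone arrays. Of 5 endothelial markers, PECAM1 was called lower in both clones and KDR and TEK lay under the first quartile. That sum was 29.6 to 30.2 in control cells and 24.5 to 25.3 in the clones. The part of these lists in the results below was not tested.

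Measured against control cells, most genes of the window had higher values in both clones, by a modest amount. The median difference over the 79 genes was 0.24 in g2_1 and 0.19 in g3_4 on the log2 scale, beside 0.033 in both clones over all tested rows. Of the 79 genes, 58 lay above 0 in g2_1 and 60 in g3_4. In the fit over all rows (limma, Benjamini-Hochberg adjusted p under 0.05), 20 of the 79 were called higher in g2_1, where 6.19% of all rows were. In g3_4, 21 were called higher, beside 6.12%, and with the clones averaged 25, beside 8.13%. Called lower were 3 genes in each, beside 8.06% of all rows in g2_1, 8.16% in g3_4 and 9.83% with the clones averaged. Calls in both clones numbered 18 higher (4.48% of all rows) and 3 lower (6.97% of all rows). All 6 clone arrays lay above all 3 control arrays for 25 of the 79 genes, beside 9.7% of all rows, and below them for 3, beside 10.6%. Some of these numbers fell with 1 array left out. Called higher were 13 genes in g2_1 without its array 2 and 12 in g3_4 without its array 2. Called lower was 1 in g2_1 without its array 1 or 3. Without array 2 of g3_4, 11 genes were called higher in both clones and 1 lower. The share of all rows called higher in both clones fell as well in that fit, from 4.48% to 2.92%. Without control array 1 the medians were 0.15 and 0.11. Both comparisons share the control arrays, and the window was drawn on them, so nothing is read from these shares. In RNA from a whole culture, fewer cells that express a gene and less RNA per cell cannot be told apart.

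**Figure D1:**
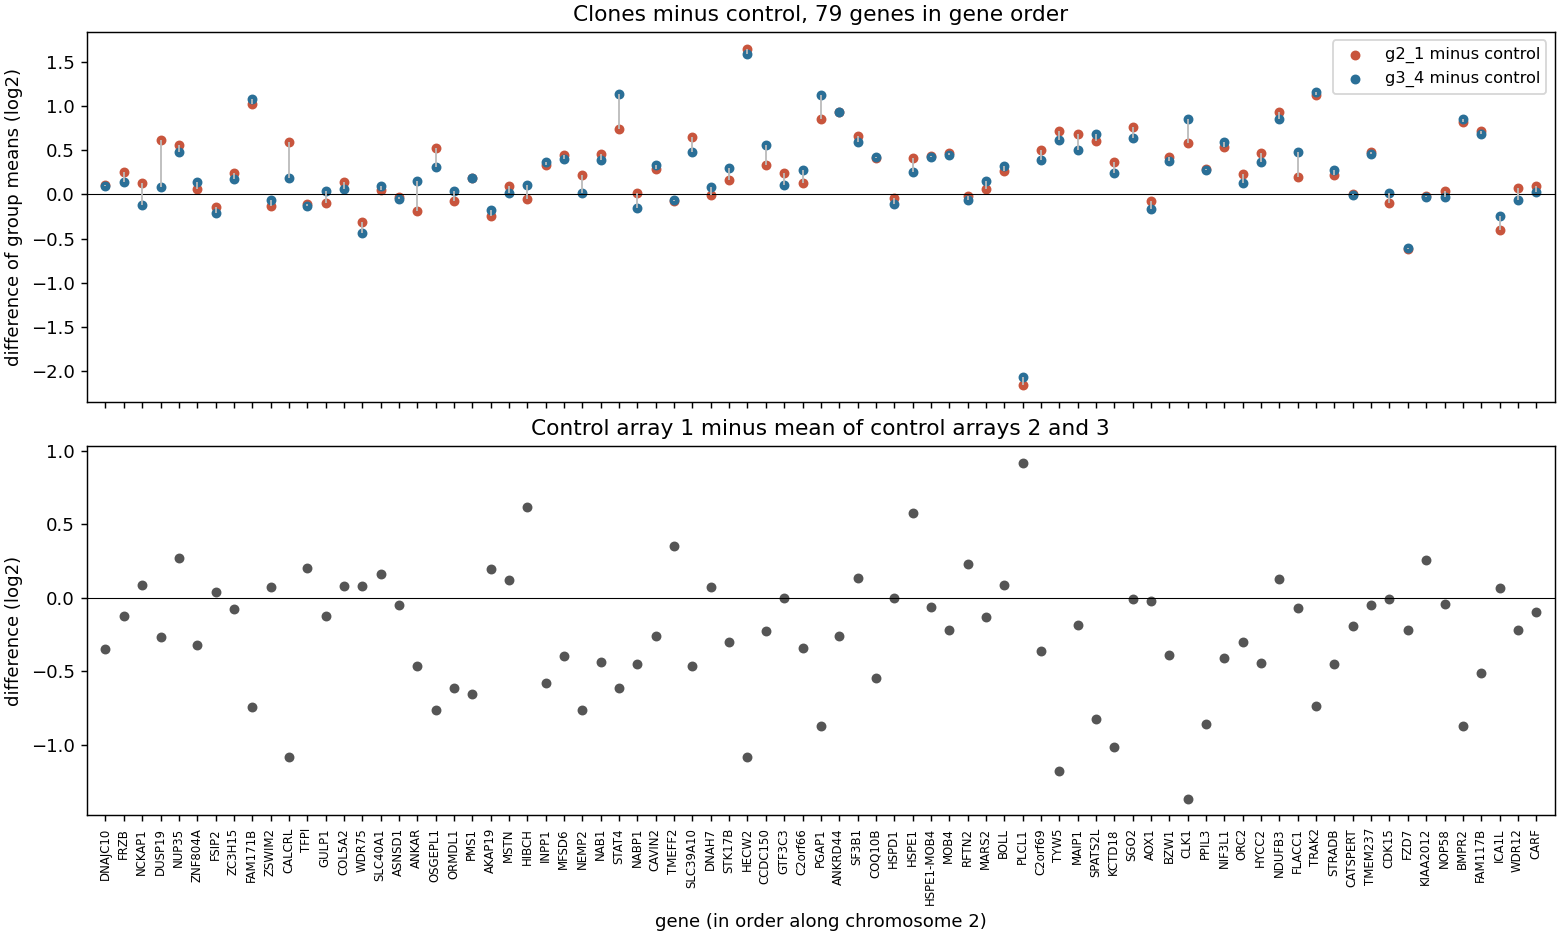
The top panel plots each clone's mean minus the control mean (log2, vertical axis) for the 79 genes in their order along chromosome 2 (horizontal axis), and the bottom panel plots control array 1 minus the mean of control arrays 2 and 3. HECW2 is highest and PLCL1 lowest in the top panel, and CLK1 is lowest and PLCL1 highest in the bottom panel.

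The median difference varied with the signal level of the row, which depends on the probes as well as on the gene. Of the 79 genes, 52 had a mean level above that of the median row (6.2), and their median difference with the clones averaged was 0.415, beside 0.038 for all tested rows above that level. The other 27 had a median of -0.005, beside 0.033. Calls varied with level too. Of the 52 genes, 19 were called higher in g2_1 and 18 in both clones, beside 1163 and 878 of the 10446 rows above that level. Of the 27 genes these counts were 1 and 0, beside 131 and 57 of 10447 rows. All clone arrays lay above all control arrays for 44.2% of the 52, beside 16% of rows above that level. For the 27 it was 7.4%, beside 3.35%. Under the first quartile of row levels (4.65) lay 14 genes, with a median of -0.031. PLCL1 and STAT4, with large differences, are among the 27. Near the floor of the array a difference is compressed, so a value near 0 there does not show that a gene did not change.

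HECW2, which encodes an E3 ubiquitin ligase, had the highest difference; only PLCL1, described below, was further from 0. Its log2 value was 6.71, 7.45 and 8.14 on control arrays 1 to 3, 9.26, 9.03 and 8.94 in g2_1 and 9.12, 9.07 and 8.86 in g3_4. The groups did not overlap, and the control arrays were spread far wider than the clones. The clones averaged were 3.06-fold above control (log2 difference 1.61, moderated standard error (SE) 0.24), and without control array 1 the difference was 1.25. The sequence around its start is shown because it belongs to the gene that sets the upper end of the window's range. It runs from 250 bases before to 50 after the start, per RefSeq on GRCh38.p14, at chr2:196593505-196593804 on the minus strand, and capitals mark matches to any of the motifs listed further on.
HECW2: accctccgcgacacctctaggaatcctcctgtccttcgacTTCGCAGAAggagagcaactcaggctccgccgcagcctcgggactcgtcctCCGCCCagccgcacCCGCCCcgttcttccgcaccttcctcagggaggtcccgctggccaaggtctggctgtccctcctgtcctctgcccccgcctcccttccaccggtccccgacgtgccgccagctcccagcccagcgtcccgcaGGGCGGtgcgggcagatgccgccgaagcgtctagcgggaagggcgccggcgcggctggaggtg

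TRAK2, an adaptor that links mitochondria to kinesin motors, came next. It was at 8.36, 8.86 and 9.33 in control cells, at 10.10, 9.87 and 9.95 in g2_1 and at 10.20, 9.91 and 9.91 in g3_4, a 2.20-fold difference of the means (log2 1.14, SE 0.18). FAM171B, a membrane protein gene, read 7.40, 8.07 and 8.22 in control cells against 8.87 to 9.0 in g2_1 and 8.89 to 9.03 in g3_4 (log2 difference 1.05). For both genes the lowest clone array lay above the highest control array. PGAP1, which encodes an enzyme that remodels the lipid anchor of GPI-linked proteins, was at 9.26, 10.12 and 10.14 in control cells, at 10.42, 10.92 and 10.72 in g2_1 and at 10.67, 11.21 and 11.02 in g3_4. Array 1 was the lowest of its group in all 3 groups for this gene, and the groups still did not overlap.

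ANKRD44, an ankyrin repeat subunit of a protein phosphatase complex, was at 8.45, 8.55 and 8.87 in control cells, at 9.51, 9.54 and 9.60 in g2_1 and at 9.60, 9.55 and 9.52 in g3_4. NDUFB3, a subunit of respiratory complex I, was at 10.00, 9.75 and 9.99 in control cells, at 10.91, 10.88 and 10.74 in g2_1 and at 10.92, 10.73 and 10.66 in g3_4. These 2 genes were tight within every group, with log2 differences of 0.93 (SE 0.10) and 0.89 (SE 0.10). For NDUFB3 the difference was 0.94 without control array 1. BMPR2, a receptor for bone morphogenetic proteins, was at 7.24, 7.89 and 8.33 in control cells and between 8.57 and 8.81 on all 6 clone arrays, and its difference of 0.83 was 0.54 without control array 1. FAM117B was at 9.05, 9.71 and 9.41 in control cells and between 9.90 and 10.22 in the clones, a difference of 0.70.

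**Figure D2:**
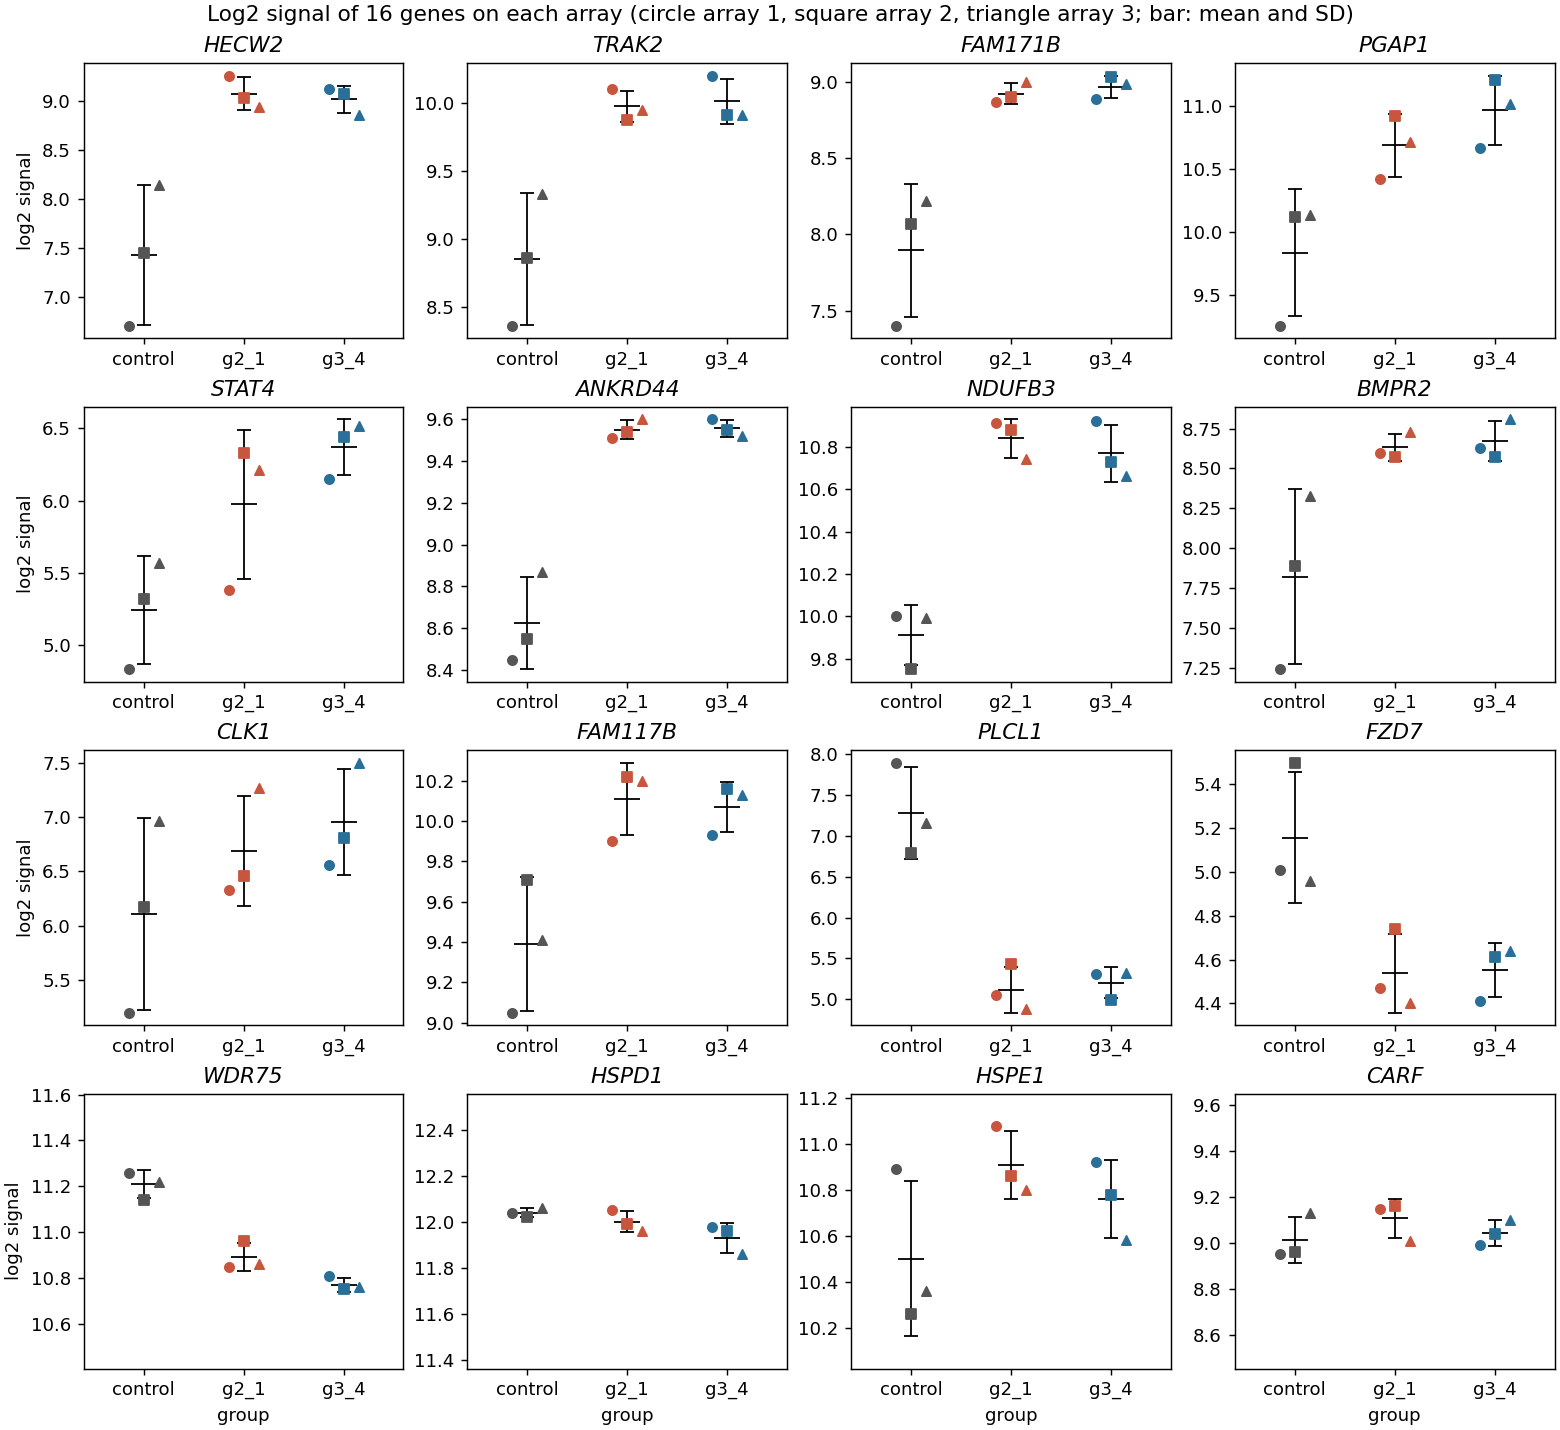
Each panel shows the log2 signal (vertical axis, scaled per gene) of 1 gene on the 9 arrays by group; circles, squares and triangles are arrays 1, 2 and 3, and the bars are the mean and SD of 3 arrays. For HECW2, TRAK2 and ANKRD44 all clone arrays lie above all control arrays, for PLCL1 all lie below, and for HSPD1 and CARF the groups overlap.

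In 2 of the 10 genes with the largest differences, the arrays of the groups overlapped. STAT4, a transcription factor that relays signals of interleukin 12 and type I interferon, was at 4.83, 5.32 and 5.57 in control cells, at 5.38, 6.33 and 6.21 in g2_1 and at 6.15, 6.44 and 6.52 in g3_4. The array numbered 1 of g2_1 lay among the control arrays, and STAT4 was called in g3_4 and not in g2_1. CLK1, a kinase that phosphorylates splicing factors, was at 5.2, 6.17 and 6.96 in control cells, at 6.33, 6.46 and 7.27 in g2_1 and at 6.56, 6.81 and 7.50 in g3_4. Array 1 was the lowest of each group for CLK1. Its difference of 0.71 (SE 0.35) was not called in either clone and was 0.26 without control array 1.

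PLCL1, a phospholipase C-like protein without catalytic activity that binds inositol phosphates, went the other way. It was at 7.89, 6.79 and 7.15 in control cells, at 5.05, 5.43 and 4.88 in g2_1 and at 5.31, 4.99 and 5.32 in g3_4. Control was thus 4.33-fold above the clones averaged (log2 difference -2.11, SE 0.21), with no overlap. FZD7, a Wnt receptor, was at 5.01, 5.5 and 4.96 in control cells and between 4.40 and 4.74 in the clones. Its values are near the floor, with clone means of 4.54 and 4.55 under the first quartile of all values (4.64). WDR75, which acts in the processing of ribosomal RNA, was at 11.26, 11.14 and 11.22 in control cells, at 10.85, 10.96 and 10.86 in g2_1 and at 10.81, 10.75 and 10.76 in g3_4. These were the 3 genes called lower in both clones. The next lowest averages, ICA1L at -0.33, AKAP19 at -0.21, FSIP2 at -0.18, TFPI at -0.12 and AOX1 at -0.12, were not called, and the last 4 have levels near the floor.

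**Figure D3:**
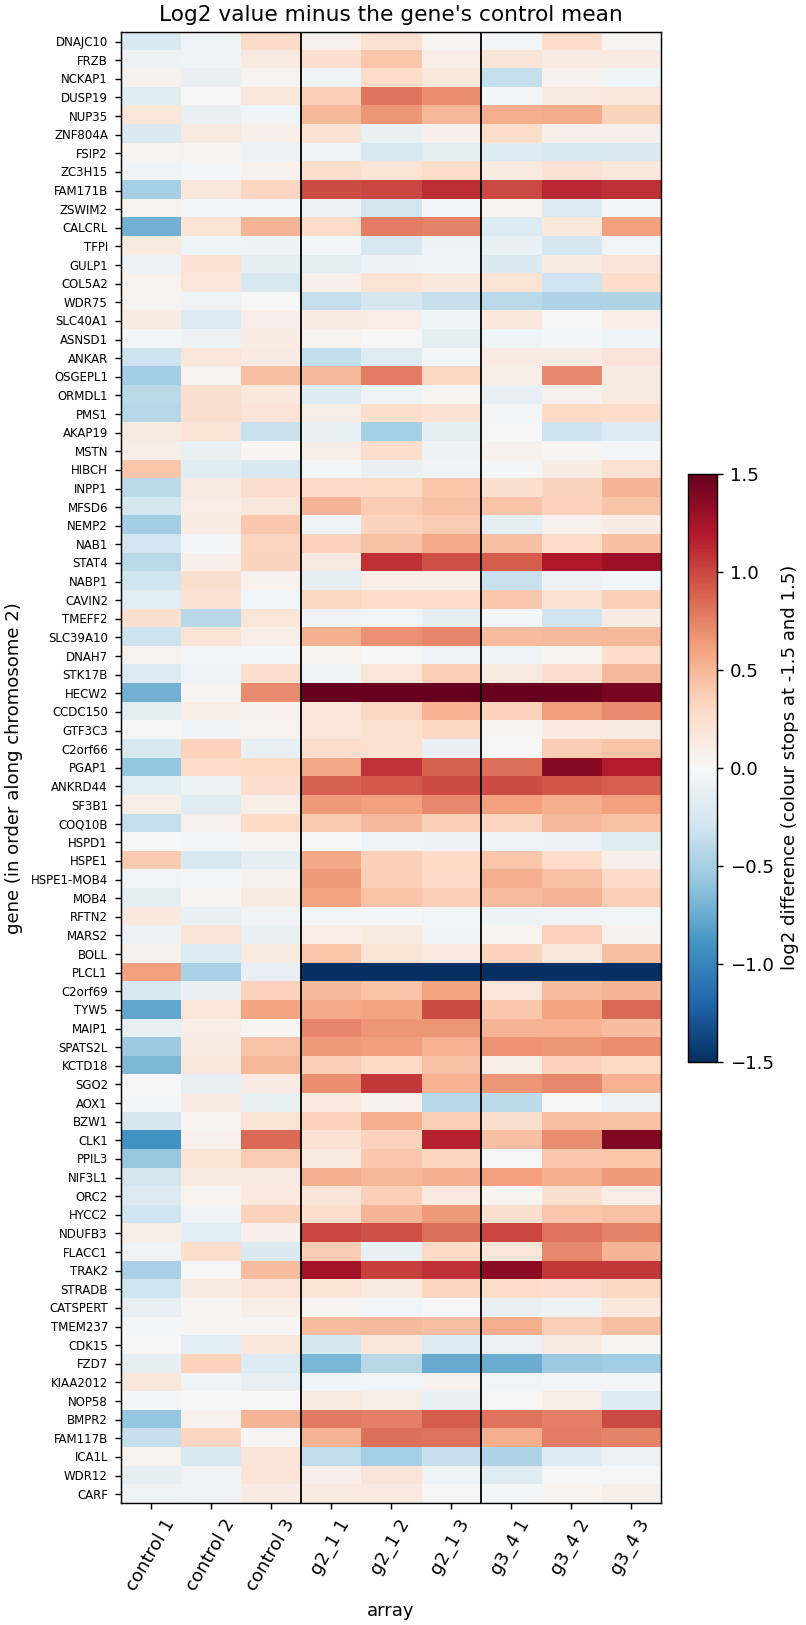
Each cell is the log2 value of 1 gene (rows, in order along chromosome 2) on 1 array (columns) minus the mean of the 3 control arrays of that gene, in red above and blue below that mean; colours stop at -1.5 and 1.5. The control 1 column is bluer than the control 3 column, and the 6 clone columns are red for most rows, with PLCL1, FZD7 and WDR75 blue.

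The genes were also set in 8 lists by the role of their products, which hold 60 of the 79 (FRZB, MSTN and NCKAP1 stand in 2 lists). Beside the median of all tested rows (0.035), the 5 genes listed under transcription and cytokine signalling had a median of 0.42 with the clones averaged. HECW2 (1.61), which is a ubiquitin ligase, leads that list, and its median would be lower without this gene. STAT4 was at 0.93, NAB1 at 0.42, ZNF804A at 0.10 and CARF at 0.062. Of the 5 genes, 1 was called higher in both clones, HECW2 (4.48% of all rows). NAB1, a corepressor of EGR transcription factors, was at 8.90, 9.16 and 9.51 in control cells and between 9.47 and 9.76 in the clones, so that the groups overlapped slightly.

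The 11 genes for RNA processing, ribosome biogenesis and translation had a median of 0.28, with 2 called higher and 1 lower in both clones (4.48% and 6.97% of all rows, the shares that stand beside every such count by role). SF3B1, the core of the U2 spliceosome particle, was at 9.53, 9.26 and 9.53 in control cells and between 9.98 and 10.16 in the clones. NIF3L1 was at 8.32, 8.72 and 8.73 in control cells and between 9.09 and 9.23 in the clones. BZW1, a regulator of translation initiation, was at 11.13, 11.43 and 11.60 against 11.63 to 11.93, without a call in either clone. NOP58, a core protein of small nucleolar particles, was at 11.18, 11.22 and 11.22 in control cells and ranged from 11.02 to 11.34 in the clones, around the control values.

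Among 9 genes of mitochondrial proteins and chaperones the median was 0.33, and NDUFB3 and the HSPE1-MOB4 readthrough row were called higher in both clones. The rows of HSPE1, MOB4 and their readthrough can share probes, so they may not be separate measurements. HSPD1 and HSPE1 encode the mitochondrial chaperonin and its lid, whose genes lie head to head, with RefSeq starts 105 bases apart. HSPD1 was at 12.04, 12.02 and 12.06 in control cells and between 11.86 and 12.05 in the clones. HSPE1 was at 10.89, 10.26 and 10.36 in control cells, at 11.08, 10.86 and 10.80 in g2_1 and at 10.92, 10.78 and 10.58 in g3_4. The partners thus differed: HSPD1 varied little over the 9 arrays, while HSPE1 was high on array 1 of every group. HIBCH, an enzyme of valine breakdown, likewise had its highest control value on array 1, at 9.10 against 8.50 and 8.46.

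The 7 genes for replication, repair and chromosome segregation had a median of 0.19. NUP35, a nuclear pore protein, was at 9.08, 8.79 and 8.83 in control cells and between 9.23 and 9.56 in the clones. SGO2, which protects cohesin at centromeres, was at 6.38, 6.26 and 6.51 against 6.90 to 7.44. Both were called higher in both clones. ORC2, of the origin recognition complex, was at 9.31, 9.56 and 9.66 against 9.54 to 9.87, NABP1, a single-stranded DNA binding protein, at 9.58, 10.12 and 9.94 against 9.55 to 9.98, and STRADB, a pseudokinase, at 10.45, 10.86 and 10.94 against 10.89 to 11.07. Their groups overlapped.

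The 7 transporters and metabolic enzymes had a median of 0.35, with 3 called higher in both clones: PGAP1, MFSD6 and the zinc importer gene SLC39A10. MFSD6 was at 11.28, 11.64 and 11.71 in control cells and between 11.89 and 12.05 in the clones, and SLC39A10 at 8.51, 9.02 and 8.92 against 9.29 to 9.55. The 12 genes of the cytoskeleton, membrane traffic and signalling had a median of 0.41, with 5 called higher in both clones (ANKRD44, FAM117B, MOB4, TMEM237 and TRAK2) and PLCL1 lower. SPATS2L, called in g3_4 and not in g2_1, was at 9.77, 10.43 and 10.75 in control cells and between 10.84 and 11.02 in the clones.

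**Figure D4:**
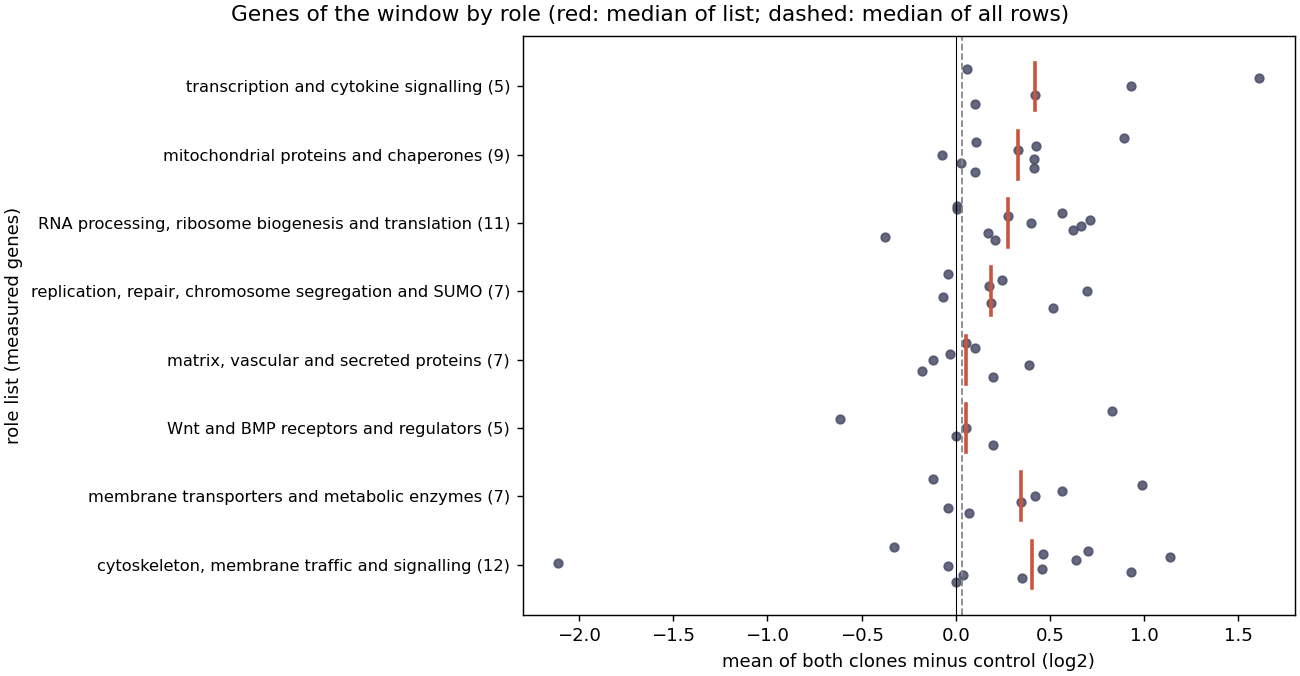
Each point is 1 gene, placed by the mean of both clones minus control (log2, horizontal axis) in its role list (vertical axis, with the number of genes measured). Red bars mark list medians, from 0.055 for the matrix and the Wnt and BMP lists to 0.42 for transcription and cytokine signalling, and the dashed line is the median of all tested rows at 0.035. The list of transcription and cytokine signalling counts HECW2, a ubiquitin ligase.

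The 2 lists with the lowest medians also had the lowest signal levels. The matrix, vascular and secreted list (7 genes, median 0.055, no call in either clone) had a median level of 4.34, under the first quartile of all values. The Wnt and BMP list had a median level of 4.75, and the other lists lay from 8.51 to 9.85. In the matrix list COL5A2, a fibrillar collagen chain, was at 5.02, 5.15 and 4.73 in control cells and between 4.67 and 5.24 in the clones. GULP1, an adaptor for the uptake of dead cells, ranged from 4.63 to 4.98 in control cells and from 4.55 to 4.96 in the clones. CALCRL, the calcitonin receptor-like receptor, was at 5.32, 6.25 and 6.55 in control cells, 6.31, 6.81 and 6.78 in g2_1 and 5.84, 6.2 and 6.65 in g3_4. FSIP2, a sperm tail protein gene, stands in the matrix list although its product is not of the matrix. The 5 genes of the Wnt and BMP list held opposite calls, with BMPR2 higher and FZD7 lower. NCKAP1, better known as a subunit of the actin-regulating WAVE complex, was at 7.98, 7.81 and 7.97 in control cells and between 7.56 and 8.19 in the clones.

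Along the window the difference was not even. In gene order, the median of the clones averaged was 0.085 for the 20 genes from DNAJC10 to ORMDL1, 0.22 for the 20 from PMS1 to PGAP1, 0.42 for the 20 from ANKRD44 to CLK1 and 0.25 for the 19 from PPIL3 to CARF. The median signal level was 6.25 in the first part and 8.09 to 9.0 in the others. At the edges, the first gene inside, DNAJC10, had a difference of 0.10 and the last inside, CARF, of 0.062. DNAJC10, an ER chaperone that reduces disulfides, was at 9.87, 10.04 and 10.39 in control cells and between 10.08 and 10.37 in the clones. CARF, a calcium-responsive transcription factor, was at 8.95, 8.96 and 9.13 against 8.99 to 9.16. Just outside, CERKL, ITPRID2 and PPP1R1C on the side of DNAJC10 had differences of -0.018, -0.092 and -0.23, and NBEAL1, CYP20A1 and RAPH1 beyond CARF had 0.55, 0.27 and 0.90. The 20 named rows on the first side had a median of 0.082 and the 20 on the other of 0.083, while the 1052 named rows of chromosome 2 outside the window had 0.035. Of the 20 on the first side, 5 were called higher in both clones and 6 had all clone arrays above all control arrays. Of the 20 beyond CARF, 0 and 1 did. Inside, these counts were 2 and 3 of 20 from DNAJC10 to ORMDL1 and 4 and 6 of 20 from PMS1 to PGAP1. They were 6 and 10 of 20 from ANKRD44 to CLK1 and 6 and 6 of 19 from PPIL3 to CARF. Over all tested rows the shares were 4.48% and 9.7%. Of the genes left out, CASP8 was at 8.89, 9.54 and 9.67 in control cells and between 10.06 and 10.21 in the clones, and CFLAR, CASP10 and ITGAV had differences of 0.073, 0.29 and 0.31.

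Among the 74 genes whose start has a RefSeq promoter entry, 5 pairs of neighbours are read in opposite directions from starts within 1000 bases, leaving the readthrough aside. They are ORMDL1 with PMS1, HSPD1 with HSPE1, PPIL3 with NIF3L1, TRAK2 with STRADB and WDR12 with CARF. The partners lay furthest apart in 2 of these pairs. TRAK2 stood at 1.12 in g2_1 and 1.16 in g3_4 where STRADB, 282 bases away, stood at 0.22 and 0.28. HSPE1 stood at 0.41 and 0.26 where HSPD1 stood at -0.040 and -0.11. Neither HSPE1 nor HSPD1 was called in either clone, and for both genes the groups overlapped. PPIL3 (0.29 and 0.27) and NIF3L1 (0.53 and 0.59) were both above 0 but also differed in size. Of that pair NIF3L1 was called higher in both clones and PPIL3 in neither. In the pairs of ORMDL1 and WDR12 both partners lay within 0.19 of 0. The windows of TRAK2 and HSPE1 are shown because each faces a partner with another value; the first lies at chr2:201451409-201451708 on the minus strand and the second at chr2:197500129-197500428 on the plus strand, both per RefSeq on GRCh38.p14.
TRAK2: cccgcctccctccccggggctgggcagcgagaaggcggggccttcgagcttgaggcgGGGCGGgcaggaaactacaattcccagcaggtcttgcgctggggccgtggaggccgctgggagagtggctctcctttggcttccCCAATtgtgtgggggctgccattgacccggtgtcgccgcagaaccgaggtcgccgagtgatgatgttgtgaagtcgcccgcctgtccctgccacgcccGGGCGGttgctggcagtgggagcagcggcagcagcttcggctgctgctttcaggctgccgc
HSPE1: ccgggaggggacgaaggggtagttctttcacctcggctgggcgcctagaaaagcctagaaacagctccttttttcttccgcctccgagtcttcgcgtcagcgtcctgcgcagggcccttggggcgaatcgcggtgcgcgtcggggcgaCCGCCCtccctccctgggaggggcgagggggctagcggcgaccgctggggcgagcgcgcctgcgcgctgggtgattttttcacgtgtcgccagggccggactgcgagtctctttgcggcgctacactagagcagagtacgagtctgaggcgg

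Capitals mark matches on either strand to 7 motifs: the CCAAT box (CCAAT), the GC box (GGGCGG), the TATA box (TATAAA), the heat shock element core (GAANNTTC), a STAT site (TTCNNNGAA), an AP-1 site (TGANTCA) and the NF-kB site, searched by its usual degenerate form. The HECW2 window held 3 GC boxes and 1 STAT site, the TRAK2 window 1 CCAAT box and 2 GC boxes, and the HSPE1 window 1 GC box. The GC box was in 58.1% of the 74 windows and in 44.6% of all 27305 RefSeq windows of that length, the CCAAT box in 39.2% and 35.7%, and the TATA box in 6.8% and 12%. The STAT site was in 8.1% and 7.9%, the NF-kB site in 2.7% and 5.7%, the AP-1 site in 5.4% and 7.8% and the heat shock core in 5.4% and 6.9%. These letters overlap no binding data in the files, and a match is a description only.

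Within the control group array 1 was low over the window. Control array 1 minus the mean of arrays 2 and 3 had a median of -0.22 over the 79 genes, beside 0.020 over all tested rows. The 20 named rows before the window had a median of -0.22, the 20 after it -0.09 and the 4 left-out genes -0.31, so that low values on this array were not limited to the window. Array 1 was the lowest control array for 12 of the 20 rows before the window and 11 of the 20 after it, and lower by at least 0.5 for 5 and 6 of them. Within the window it was the lowest control array for 48 genes (34.9% of all rows) and the highest for 15 (40.8% of all rows). By at least 0.5 log2 units it was lower for 19 genes (6.95% of all rows) and higher for 3 (7.22% of all rows), and 5 genes were lower by at least 1 (1.23% of all rows) and 0 higher by as much (1.37% of all rows). The 5 were CLK1 at -1.37, TYW5 at -1.18, HECW2 at -1.09, CALCRL at -1.08 and KCTD18 at -1.02. TYW5, an enzyme that modifies a transfer RNA, was at 6.98, 7.95 and 8.36 in control cells, between 8.33 and 8.74 in g2_1 and between 8.17 and 8.61 in g3_4. KCTD18 was at 7.86, 8.71 and 9.04 in control cells and between 8.62 and 8.98 in the clones. For each of the 5 genes control array 1 was the lowest of all 9 arrays.

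The opposite sign was rarer. PLCL1 was 0.92 higher on control array 1, HIBCH 0.62 and HSPE1 0.58, and the next were TMEFF2 at 0.355 (0.050 without control array 2 and 0.66 without control array 3), NUP35 at 0.27, KIAA2012 at 0.255, RFTN2 at 0.23 and TFPI at 0.205. Of the last 5, all but NUP35 have levels near the floor. Set against the control mean, the median over the 79 genes was -0.15 on control array 1, 0.017 on array 2 and 0.12 on array 3. It was 0.20, 0.27 and 0.29 on the arrays of g2_1 and 0.14, 0.25 and 0.28 on those of g3_4. All 6 clone medians lay above all 3 control medians. Without control array 1 the median difference over the 79 genes was 0.15 in g2_1, 0.11 in g3_4 and 0.13 with the clones averaged, against 0.24, 0.19 and 0.23 with it. The calls without that array were 17 higher and 2 lower in g2_1 and 19 higher and 3 lower in g3_4. In both clones 15 genes were then called higher, beside 4.78% of all rows, against 18 and 4.48% with that array.

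The contrast of array 1 with arrays 2 and 3 within the clones was not used to choose the window, although the clone arrays were, through their difference from control. In them the arrays numbered 1 were set against those numbered 2 and 3 over both clones, with clone as a term (limma over all tested rows, two-sided). None of the 79 genes was called (0 of 79), where 1.1% of all rows were (0.225% higher and 0.871% lower), and the smallest adjusted p was 0.071, for STAT4. At an unadjusted p under 0.05 there were 19 genes, 15 lower and 4 higher on arrays numbered 1, which is 24.1% of the 79, beside 17.7% of all rows. This share varied with signal level. For the 52 genes above the level of the median row it was 26.9%, beside 24.9% of all rows above it. For the other 27 it was 18.5%, beside 10.5%. The lowest values were STAT4 at -0.61 (SE 0.13), CLK1 at -0.565 (SE 0.25), CALCRL at -0.535 (SE 0.13) and PGAP1 at -0.42 (SE 0.10). The median over the 79 genes was -0.043, beside 0.010. Array 1 was the lowest of its group in both clones for 24 genes (17.5% of all rows) and the highest in both for 11 (19.2% of all rows). HECW2 and TRAK2, low on control array 1, were at 0.22 (adjusted p = 0.29) and 0.24 (adjusted p = 0.19) in this contrast by limma. The RNA integrity number moves with the array number in all 3 groups, and its part was not tested and cannot be told apart from other properties of those arrays.

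**Figure D5:**
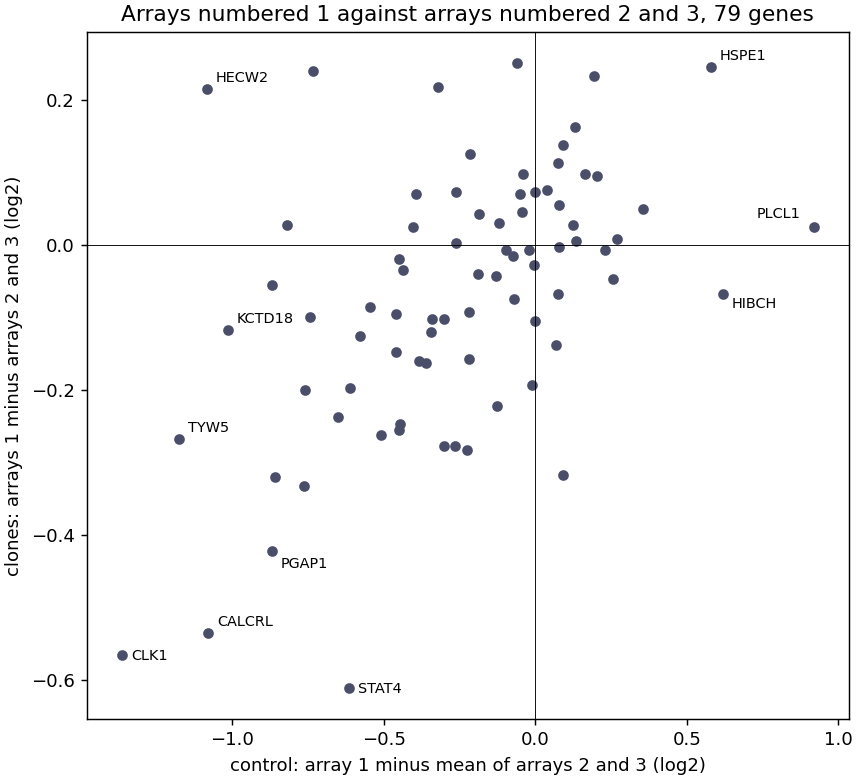
Each point is 1 of the 79 genes, placed by control array 1 minus the mean of control arrays 2 and 3 (log2, horizontal axis) and by clone arrays numbered 1 minus those numbered 2 and 3, over both clones (log2, vertical axis). CLK1, CALCRL, TYW5, PGAP1 and STAT4 are low on both axes, HECW2 is low in control cells and above 0 in the clones, and the horizontal axis spans a wider range than the vertical.

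Across the 79 genes both contrasts had a Spearman rho of 0.52, where it was 0.32 across all 20893 rows. Over the 52 genes above the level of the median row it was 0.45. The window was drawn on the control contrast, so nothing is read from the higher rho. No array is in both contrasts, but arrays of 1 number may share handling, and genes are not independent replicates.

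Set against each other, the clones showed no difference that passed the test. In limma over all tested rows, 0 of the 79 genes were called between g2_1 and g3_4, where 0.0526% of all rows (11 of 20893) were, 0.0191% higher and 0.0335% lower in g2_1. At an unadjusted p under 0.05 there were 2 of the 79, beside 4.41% of all rows. With array number, which pairs the clones, as a replicate block there were 6, and 5 with array weights or without the arrays numbered 1, with 0 called in each. The shares of all rows at that p were not counted in those fits, so nothing is read from the change. DUSP19, a dual-specificity phosphatase gene, was 0.53 higher in g2_1 (SE 0.14, adjusted p = 0.47 in limma). It was at 5.90, 6.34 and 6.23 in g2_1, at 5.51, 5.67 and 5.69 in g3_4 and at 5.36, 5.54 and 5.71 in control cells, so that all 3 arrays of g2_1 lay above the other 6. ANKAR was 0.34 lower in g2_1 (SE 0.14, adjusted p = 1 in limma). Differences between the clones ranged from -0.40 (STAT4) to 0.53 with SEs of 0.087 to 0.41. The missing calls do not show that the clones were alike.

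The choice of the window did not use gene length, but it did use the differences that are set against length here. Among the 52 genes above the level of the median row, the median of the clones averaged minus control was 0.35 for the 21 genes whose RefSeq span is under 30 kb, 0.42 for the 22 of 30 to 100 kb and 0.64 for the 9 of 100 kb or more. Over all tested rows above that level with a span, the same medians were 0.045, 0.022 and 0.064. Spearman's rho of length with the difference was 0.27 over the 52 genes and -0.006 over the 9239 rows, as a description across genes of the same arrays. With control array 1 minus arrays 2 and 3 it was -0.135 and -0.131. Nothing is read from these values.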

How the data were processed

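RNA of 9 samples (3 groups of 3; 250 ng each) was measured on human Clariom S arrays. The deposited log2 values were made by the authors by RMA; the submitters' processing notes name Transcriptome Analysis Console 4.0; no scanner files were used, and the number of arrays limits the precision. Rows with IDs of unmapped probe sets (555) were left out, leaving 20893. Of these 17705 have 1 gene symbol, none has several and 3188 have none, and all 17705 gene IDs matched RefSeq (GRCh38.p14). The files' genome build is not given in the sources used here, so RefSeq served for names, order and length and for the promoters. The rule's text ends the window at ICA1L; its limit of 203 Mb also takes in WDR12 and CARF.

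Members, role lists and markers were chosen with earlier results of these data known. Comparisons were fitted in limma 3.58.1 under R 4.3.3 (moderated fit with a mean per group over the 9 arrays, two-sided, Benjamini-Hochberg over all rows, called at adjusted p under 0.05), and SE means its moderated standard error. The fit was tested on simulated data. Named were the 10 highest and 8 lowest members for the clones averaged, the 8 highest and 5 lowest for control array 1, called members of the tests, the 3 of highest row level in each role list, the edges and the left-out genes; other members called in both clones, DUSP19, ANKAR, STRADB's and NIF3L1's partners and those lowest in clone arrays 1 were named after their values were seen. Arrays of 1 number deviated together between the clones (correlations 0.435, 0.191 and 0.310 across rows), so the number pairs the clones; against control they were 0.0426 to 0.298. Alternatives were a block for the number, other priors and weights, centring, filters, member sets and leaving out each array.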

Additional observations from a re-analysis of the deposited data

How the results depend on the processing

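The count of genes called between the clones (0) and in clone arrays 1 against 2 and 3 (0) held under every alternative run on the 79 genes, each array left out included; with the 4 left-out genes added, the second was 1, ITGAV. With array number as a replicate block, calls between the clones stayed at 0, and calls against control were 29 higher and 4 lower in g2_1 and 26 and 3 in g3_4. The share of all rows rose as well: in both clones, 24 genes were called higher beside 6.12%, against 18 and 4.48% without the block. The number pairs control and clones only in part, and the block moved no count of calls by over 1.5 times. Genes at an unadjusted p under 0.05 between the clones were 6 with it and 2 without. In g2_1, 31 genes were called higher with arrays centred on their median (20 without centring), 29 in g3_4 and 36 averaged, while the share of all rows called higher in both clones went from 4.48% to 8.37%, and in g2_1 1 lower in a fit of only the groups compared (3 with all groups). The cause was not tested.

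Leaving out 1 array at a time, calls in g2_1 ranged from 13 to 26 higher (13 without its array 2) and 1 to 3 lower (1 without its array 1 or 3). In g3_4 they ranged from 12 to 28 higher (12 without its array 2) and 2 to 3 lower, and with the clones averaged from 20 to 30 higher and 3 to 4 lower. The share of all rows was counted in these fits only for genes called higher in both clones, and it moved too. Medians ranged from 0.153 to 0.308 in g2_1, 0.11 to 0.28 in g3_4 and 0.13 to 0.283 averaged, and for control array 1 against array 2 or 3 alone from -0.21 to -0.17, with 20 to 22 genes lower by 0.5. Genes called higher in both clones were 18 (4.48% of all rows), 27 with centring (8.37%) and 24 with the block (6.12%). They were 25 without control array 3 (4.75%), 15 without control array 1 (4.78%) and 11 without array 2 of g3_4 (2.92%). Without array 2 of g2_1 (3.03%) or array 1 of g3_4 (3.17%) they were 12. Without the arrays numbered 1 (3.98%), an alternative added after seeing the data, they were 13. Ending at ICA1L, also added later, changed no count of calls; taking all rows of each symbol gives the same rows here, since each symbol has 1. For the named genes' values, 303 of the alternatives run stayed within the spread or the call and 2 did not: after centring FSIP2 was at -0.0667 and WDR75 at -0.2633. Each clone is 1 single-cell clone, so clone and knockout cannot be told apart.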
